A study of Homo sapiens with 6 samples.

Results

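High glucose (4.5 g/L) was compared with normal glucose (1 g/L) in lines made from A2058, a human melanoma cell line. All 6 samples of the series entered the comparison, 3 at each concentration, chosen by the glucose label and paired by line. The 3 lines were Mock, a line overexpressing wild-type TET2 (TET2WT) and a line overexpressing TET2M, which the labels also call Mut. The TET2 protein oxidises 5-methylcytosine, an early step of DNA demethylation. Every line, the Mock control included, had been kept for 7 days at its concentration and split every 2 to 3 days. The labels do not say which promoter drove the constructs, which residues differ in TET2M, or whether a line was 1 clone. Total RNA of each of the 6 combinations of line and glucose was hybridised to 1 Affymetrix array, so no combination was measured again. All single-gene probe sets were used, 41097 of 54675, and they gave 14428 tested genes.

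Cells read glucose at several points. The transcription factors MondoA and ChREBP respond to sugar phosphates and turn on genes such as TXNIP, whose protein restrains glucose uptake. Sterol-responsive factors of the SREBP family drive cholesterol and fatty acid synthesis, and the factor ATF4 drives amino acid synthesis and transport when the integrated stress response is active.

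Values are on a log2 scale, and a difference is the log2 value at high glucose minus that at normal glucose in the same line, averaged over the 3 lines. The ± is the standard error from limma, which fitted 1 glucose term and 1 term for each line, and a gene passed when its adjusted p was under 0.05. With 1 array per combination, the error rests on the spread of the glucose difference over the 3 lines, which may be technical. In limma that spread is pulled toward a value shared by all genes (prior degrees of freedom 3.97, residual 2). The ± is therefore not a gene's own spread alone. An exact sign test over 3 pairs cannot give a two-sided p below 0.25, so no such test was run.

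Glucose left most transcripts close to where they were. LCN2 was the 1 gene that passed, and it was lower at high glucose (0.00693% of the 14428 genes). No gene passed in the higher direction (0%). An unadjusted p under 0.05 was found for 2218 of the 14428 genes in limma. The laxer threshold of 0.1 held 54 genes with higher values (0.374%) and 26 with lower ones (0.18%), with differences from 0.49 to 1.87 and from -1.36 to -0.48. This split of 54 to 26 was 63 to 47 with quantile normalization. A rule that needs no variance estimate, a change of 1.5-fold or more with 1 sign in each line, held 19 genes on the higher side (0.132%) and 12 on the lower (0.0832%). Of all genes, 2413 were positive in all 3 lines (16.7%) and 2992 negative in all 3 (20.7%), and the median difference was -0.02. Member counts below are set beside these shares. The 3 high-glucose arrays lay above all 3 normal-glucose arrays for 871 of the 14428 genes and below them for 1125. Of the 80 genes with an adjusted p under 0.1 in limma, 54 showed such a separation. Where it is given for a named gene below, it is a description. With an intensity trend in limma's variance the passing genes numbered 315 higher and 258 lower at 0.05, while none passed with the line term dropped, with line as a random block or with any 1 array left out.

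The lines differed in how closely their glucose differences tracked each other. Across the 14428 genes, the differences in Mock and TET2M had a Pearson r of 0.444, those in Mock and TET2WT 0.207 and those in TET2WT and TET2M 0.258. These are descriptions across genes, which are not independent replicates, and no pair of lines shared an array. The 80 genes with an adjusted p under 0.1 lay away from the centre in the same quadrant for every pair of lines, which the test itself favours.

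**Figure D1:**
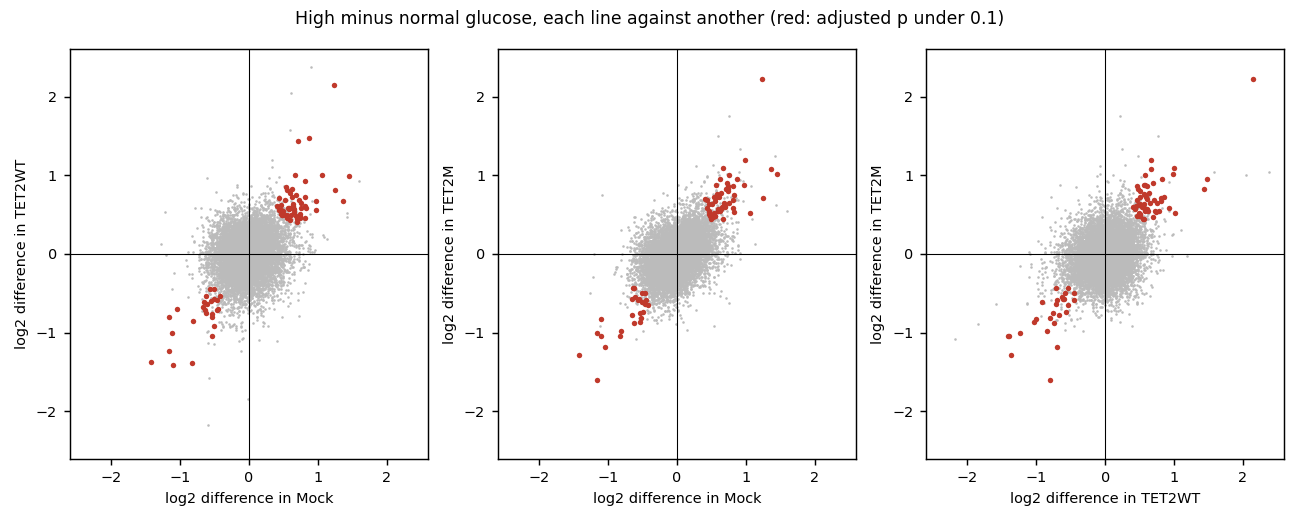
Log2 difference between high and normal glucose in 1 line (x axis) against another (y axis) for 14428 genes, 1 grey dot per gene. Red dots are the 80 genes with limma's adjusted p under 0.1, and the cloud of all genes is longest along the diagonal for Mock and TET2M (r = 0.444).

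Marker genes were read to check the labelled cell type. Of 11 melanocyte and melanoma lineage markers on the array, 6 had a mean value above 2.64, the level under which genes were left out as dim. SOX10, the lineage transcription factor, read between 9.38 and 9.65 and MITF between 6.30 and 6.96 on the 6 arrays, while the pigment genes TYR, TYRP1 and MLANA stayed between 2.16 and 2.64. The summed linear level of the lineage list ran from 1021.3 to 1040.3 at high and from 1086.1 to 1188.6 at normal glucose, without overlap. SOX10 read highest in that sum and was the 1 marker of 11 that was negative in all 3 lines, while 3 had a positive mean. The dedifferentiated or neural crest-like melanoma list, with 7 of 8 markers above 2.64, ran from 1535.2 to 1608 and from 1313.8 to 1535.7. Its sum was higher at high glucose in each line, with 1 of its 8 markers positive in all 3 lines. The part of these lists in the gene results was not tested. Of the leukocyte markers 4 of 7 were above that level, with summed levels from 88.1 to 118.8 at high and from 81.7 to 117.2 at normal glucose, of which LYZ read 5.39 to 6.35 and CD79A 3.31 to 3.85, while CD3E, PTPRC and CD14 read at most 2.93. The fibroblast list, with 7 of 10 above the level, ran from 107.2 to 120 at high and from 95.8 to 110.3 at normal glucose. The endothelial list, with 6 of 9, ran from 78.7 to 84.4 and from 84.6 to 87.9, also without overlap. The keratinocyte list, with 8 of 11, ran from 1402.4 to 1528.2 and from 1445.7 to 1604.2, mostly from KRT10 and PERP, and the epithelial list, with 5 of 6, from 1293.5 to 1415.7 and from 1253 to 1394. The 3′ minus 5′ difference of the ACTB control probe sets, which grows as RNA degrades, was larger at high than at normal glucose in Mock (2.02 and 1.94), TET2WT (2.06 and 1.90) and TET2M (1.93 and 1.65). That of GAPDH was 0.29 and 0.32, 0.35 and 0.25, and 0.28 and 0.28 in the same order. The part of RNA quality in the gene results was not tested. In a bulk sample, fewer cells of a type and less RNA per cell cannot be told apart.

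LCN2 encodes a siderophore-binding lipocalin that is secreted in inflammation, and it fell at high glucose in each line. Its value was 6.25 at high against 7.67 at normal glucose in Mock, 3.03 and 4.40 in TET2WT, and 3.66 and 4.94 in TET2M. Its level depended on the line, Mock being highest at both concentrations, so the concentrations overlapped across lines while the 3 pairs differed by nearly the same amount. The LCN2 value of 3.03 in TET2WT at high glucose was near the median of that array (3.02) and the dim level of 2.64. The difference was -1.36 ± 0.074 (adjusted p = 0.0247, limma; lower in 3 of 3 lines). Its 3 line differences were -1.42, -1.37 and -1.28, and the array held 1 probe set for it. Over 18 alternatives the difference stayed between -1.40 and -1.33. The adjusted p in limma ran from 4.81e-05 with the intensity trend to 0.755 without the line term. It was under 0.05 in 7 of the 18. Leaving out an array or its line gives the same fit, so the 18 hold repeats.

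Chemokine genes of the same inflammatory list were lower beside LCN2. The promoters of LCN2, CXCL8 and CXCL2, each with the 250 bases before its RefSeq start site in GRCh38.p14, are printed because all 3 hold the letters GGAATNTCC, a form of the kB site bound by NF-kB, in capitals. They lie at chr9:128149203-128149452 on the plus strand, chr4:73740319-73740568 on the plus strand and chr4:74099196-74099445 on the minus strand.
LCN2: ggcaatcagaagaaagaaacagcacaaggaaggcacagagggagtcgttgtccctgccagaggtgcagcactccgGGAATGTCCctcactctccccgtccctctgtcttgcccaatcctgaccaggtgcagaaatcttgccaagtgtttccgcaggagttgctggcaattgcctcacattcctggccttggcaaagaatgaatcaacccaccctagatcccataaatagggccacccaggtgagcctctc
CXCL8: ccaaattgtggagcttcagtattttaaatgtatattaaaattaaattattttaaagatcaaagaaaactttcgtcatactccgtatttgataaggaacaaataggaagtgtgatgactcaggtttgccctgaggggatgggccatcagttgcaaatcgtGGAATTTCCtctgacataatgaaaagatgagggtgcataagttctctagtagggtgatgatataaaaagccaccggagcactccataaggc
CXCL2: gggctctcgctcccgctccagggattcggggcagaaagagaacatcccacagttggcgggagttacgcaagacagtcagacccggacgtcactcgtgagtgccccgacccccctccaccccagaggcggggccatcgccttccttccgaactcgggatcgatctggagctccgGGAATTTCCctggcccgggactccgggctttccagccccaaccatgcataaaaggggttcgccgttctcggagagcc
Either strand of these letters occurred before a start of 132 of 11514 tested genes with a promoter sequence (1.15%) and of 12 of 36 such genes of the NF-kB and inflammation list (33.3%). The match lies 175 to 167 bases before the start in LCN2, 91 to 83 in CXCL8 and 77 to 69 in CXCL2. A match describes the sequence and is not evidence of binding.

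CXCL8, a neutrophil-attracting chemokine, read 10.73 at high against 11.56 at normal glucose in Mock, 6.49 and 7.88 in TET2WT, and 8.58 and 9.62 in TET2M. CXCL2, another chemokine of that family, read 7.39 and 8.43 in Mock, 3.50 and 4.20 in TET2WT, and 5.12 and 6.30 in TET2M. The lines lay far apart at both concentrations, and within each line the high-glucose array was the lower. The differences were -1.09 ± 0.12 for CXCL8 and -0.97 ± 0.11 for CXCL2, both with an adjusted p of 0.0783 in limma. A further CXCL8 probe set gave -1.28. Of 59 genes of the NF-kB and inflammation list 46 were tested, and LCN2 was the 1 that passed. At 0.1 LCN2, CXCL8 and CXCL2 were lower and IL24 was higher. Negative in all 3 lines were 20 of 46, against 20.7% of all genes, and the list's median was -0.16 against -0.02. By role, the medians were -0.29 for acute-phase and effector genes, -0.26 for cytokines and chemokines, -0.15 for feedback inhibitors and -0.03 for receptors and factors. TNFAIP3, a feedback inhibitor of NF-kB, had a difference of -0.58 ± 0.11 and IL1A, an interleukin-1 cytokine, of -0.57 ± 0.13, and neither passed. With the mean of its probe sets TNFAIP3 was at -0.28. Of 10 cytokine genes negative in all 3 lines, CXCL1 stood at -0.61, LIF at -0.44 and CCL2 at -0.35. IL24, a cytokine of the interleukin-10 family, lay on the other side, reading 7.10 and 6.23, 7.27 and 5.79, and 7.09 and 6.14 at high and normal glucose in Mock, TET2WT and TET2M (1.10 ± 0.13, adjusted p = 0.0783, limma). Its 3 high-glucose arrays lay above all 3 normal-glucose arrays. Among 13 tested genes of MHC class I presentation 8 were negative in all 3 lines, with small differences from -0.32 for the regulator NLRC5 to 0.05 for the peptide transporter TAP2. The 35 tested interferon response genes had a median of -0.04, with 10 negative and 5 positive in all 3 lines.

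**Figure D2:**
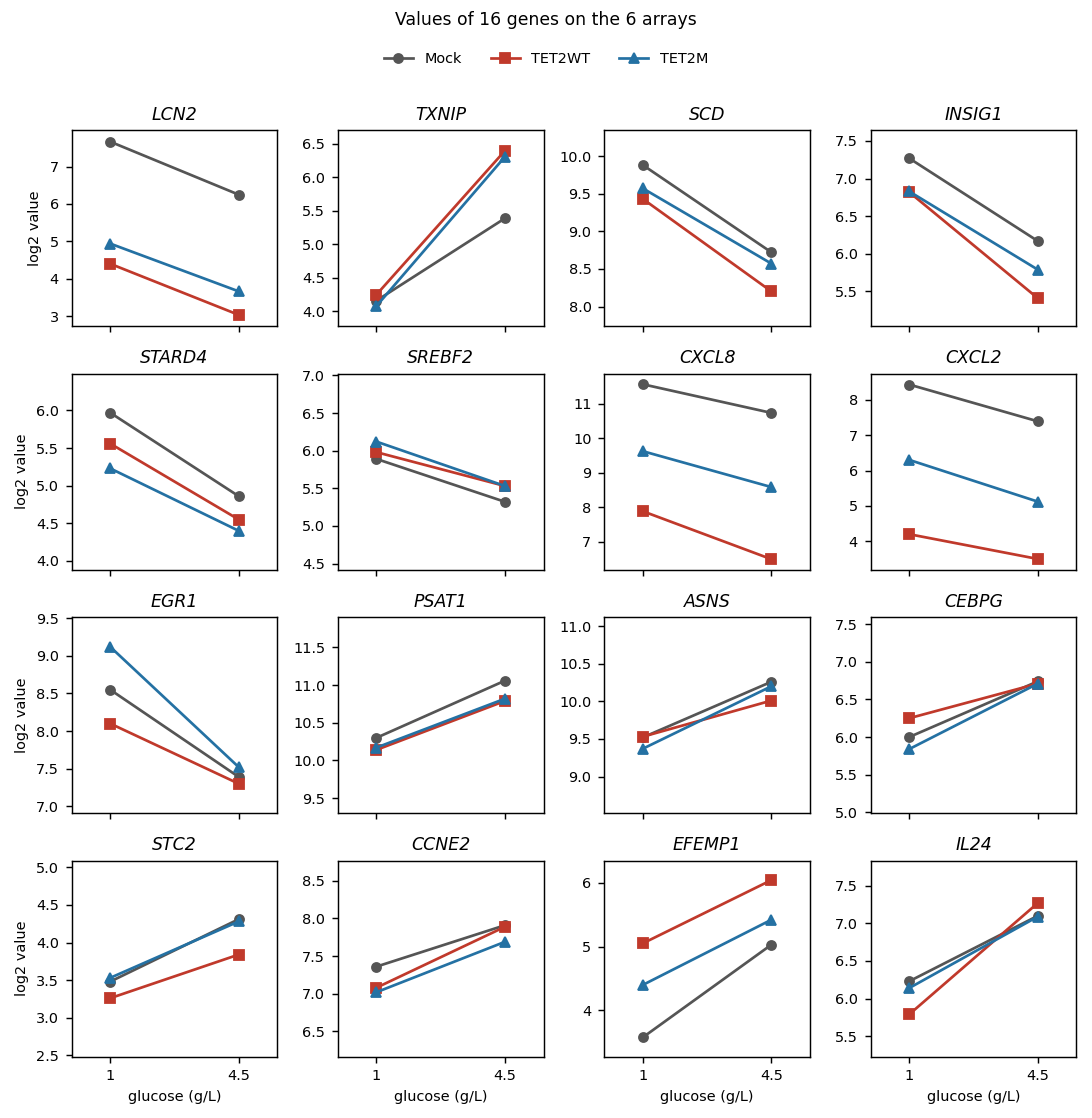
Log2 values of 16 genes (y axis, 1 panel per gene) at 1 and 4.5 g/L glucose (x axis), with 1 point per array and a line joining the 2 arrays of a cell line. LCN2 fell in each line, TXNIP was higher at 4.5 g/L in every line without passing, and the chemokines CXCL8 and CXCL2 lay far apart by line and were lower at 4.5 g/L in each.

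TXNIP, a target of MondoA that inhibits thioredoxin and glucose uptake, had the largest positive difference of all tested genes. The 250 bases before 1 of its 2 RefSeq starts are printed (GRCh38.p14, chr1:145996580-145996829, minus strand). In capitals is a pair of CACGNG boxes 5 bases apart, the layout of a carbohydrate response element, which the other start lacked.
TXNIP: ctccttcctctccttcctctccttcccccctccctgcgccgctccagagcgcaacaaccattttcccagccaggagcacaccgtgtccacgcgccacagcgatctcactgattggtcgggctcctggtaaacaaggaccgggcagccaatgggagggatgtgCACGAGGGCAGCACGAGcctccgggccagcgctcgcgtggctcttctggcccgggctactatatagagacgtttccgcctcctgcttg
A pair with this spacing was found on either strand before a start of 14 of 11514 tested genes (0.122%). In the list of glucose sensing by MondoA and ChREBP it was found in 1 of 15 genes with a promoter (6.67%), TXNIP itself. The TXNIP pair lies 88 to 72 bases before the printed start. The searched pair includes CACGTG, and no other motif used here contains another.

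TXNIP read 5.39 at high against 4.16 at normal glucose in Mock, 6.40 and 4.25 in TET2WT, and 6.31 and 4.08 in TET2M. The 3 normal-glucose arrays lay within 0.17 of each other, and all 3 high-glucose arrays lay above them. The difference was 1.87 ± 0.20, with an adjusted p of 0.0783 in limma, which did not pass. The other TXNIP probe sets gave 1.32 and 1.25, each positive in 3 of 3 lines, and with the mean of the 3 probe sets the gene passed at 1.48 (adjusted p = 0.0173, limma). In Mock the difference was 1.23 and in the overexpressing lines 2.15 and 2.23, and the response of Mock differed from the other lines by -0.96 ± 0.15, which did not pass (adjusted p = 0.995, limma).

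Members of the glucose-sensing list lay on both sides. Of 19 genes 17 were tested, TXNIP included, 4 positive and 6 negative in all 3 lines, and the median was -0.0033. Of 9 tested targets 3 were positive in all 3 lines (TXNIP, ARRDC4 and KLF11) and 1 negative (ARRDC3), with a median of 0.04 over the line means and of 0.18, 0.24 and 0.19 within Mock, TET2WT and TET2M. Of 8 tested regulators 1 was positive and 5 negative in all 3 lines, with a median of -0.17. ARRDC4, an arrestin-domain paralogue of TXNIP, read 3.84 and 2.77, 3.53 and 3.29, and 3.36 and 2.50 at high and normal glucose in Mock, TET2WT and TET2M (0.72 ± 0.16, adjusted p = 0.169, limma). ARRDC3, another arrestin-domain gene, lay on the other side, at 5.85 and 6.36, 5.53 and 5.98, and 5.57 and 6.06 (-0.48 ± 0.070, adjusted p = 0.0921, limma). For both genes the 3 high-glucose arrays stood apart from the 3 normal-glucose arrays. The transcription factor KLF11 had a difference of 0.44. Among the regulators, MLXIPL, which encodes ChREBP, had a difference of -0.43 and MYC, which shares the E-box with MondoA, of -0.42, while MLXIP, which encodes MondoA, was at 0.09. None of these regulators passed at 0.1.

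Enzyme genes of glucose use had small differences, mostly negative. In glycolysis and lactate handling 15 of 29 tested genes were negative and 2 positive in all 3 lines, with a median of -0.10 and none past 0.1. The upper steps held most of them: 9 of 11 were negative in all 3 lines. PFKFB4, an enzyme that sets the level of fructose 2,6-bisphosphate, read 6.30 and 6.89, 6.18 and 6.59, and 6.32 and 6.70 at high and normal glucose in Mock, TET2WT and TET2M (-0.46 ± 0.079, adjusted p = 0.137, limma). Its relative PFKFB3 was at -0.34, the liver-type phosphofructokinase PFKL at -0.32 and the aldolase ALDOC at -0.34. TIGAR, a fructose bisphosphatase, was the 1 gene of the upper steps positive in all 3 lines, at 0.18. GAPDH, a glycolytic enzyme often used as a reference, was at -0.07 ± 0.070. Of the glucose transporters, SLC2A1 was positive in all 3 lines at 0.23 and SLC2A3 was at -0.10, and the hexokinases HK1 and HK2 were at -0.14 and -0.10. Of 12 tested genes of the pentose phosphate pathway 5 were negative in all 3 lines, PGD (-0.31) and TKT (-0.25) among them. In the hexosamine pathway and O-GlcNAc cycling, which draws on glucose for sugar nucleotides, 4 of 8 tested genes were positive in all 3 lines. OGA, the enzyme that removes O-GlcNAc, had 0.43, 0.43 and 0.33 in Mock, TET2WT and TET2M and UAP1, which makes UDP-GlcNAc, 0.28, 0.21 and 0.36. Of 37 tested genes of the nuclear-encoded respiratory chain, 19 were negative and 1 positive in all 3 lines, but the differences ran only from -0.20 for NDUFS7 to 0.06 for COX6C. Glycogen genes were negative in all 3 lines in 6 of 11 tested, with GSK3B at -0.30 and the phosphorylase PYGL at -0.20, and TCA cycle genes in 7 of 21, with SDHC at -0.26 and SDHA at -0.14. In fatty acid oxidation 6 of 20 tested genes were negative in all 3 lines, ACADS at -0.38 and CPT1A at -0.32, while the coactivator PPARGC1B stood at 0.48. Several of these values were over 1.5 times smaller with the mean of a gene's probe sets, at -0.04 for SDHC, -0.04 for CPT1A, 0.26 for PPARGC1B, -0.16 for PFKL, -0.17 for PGD, -0.16 for TKT, 0.22 for OGA and -0.13 for NDUFS7, and HK2 was larger at -0.31.

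Genes of the SREBP pathway were lower at high glucose more often than genes at large. Of 57 listed genes 46 were tested, 22 were negative in all 3 lines against 20.7% of all genes, and 6 had an adjusted p under 0.1, all lower. None of the 46 passed at 0.05. The strongest members spread over the roles: the sensor INSIG1, the factor SREBF2, the desaturase SCD, the sterol carrier STARD4, the last enzyme of cholesterol synthesis DHCR7 and the phosphatidate phosphatase LPIN1. The 250 bases before the start of SREBF2 (GRCh38.p14, chr22:41832855-41833104, plus strand) are printed because this gene, which encodes SREBP-2, carries the letters TCACNCCA of a sterol regulatory element, in capitals.
SREBF2: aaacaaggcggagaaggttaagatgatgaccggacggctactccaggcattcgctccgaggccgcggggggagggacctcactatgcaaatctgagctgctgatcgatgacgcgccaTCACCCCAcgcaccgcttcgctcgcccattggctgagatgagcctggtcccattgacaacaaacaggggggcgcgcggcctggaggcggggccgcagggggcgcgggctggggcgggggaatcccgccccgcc
Either strand of these letters was found before a start of 454 of 11514 tested genes (3.94%) and of 4 of 43 SREBP list genes (9.3%). In SREBF2 the match lies 133 to 126 bases before the start. Of the 6 members with an adjusted p under 0.1 in limma, SREBF2 was the only one in which these letters were found.

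SCD, which puts a double bond into saturated fatty acids, read 8.72 at high against 9.88 at normal glucose in Mock, 8.20 and 9.43 in TET2WT, and 8.57 and 9.57 in TET2M. INSIG1, which holds SREBP proteins in the endoplasmic reticulum when sterols are high, read 6.17 and 7.27, 5.41 and 6.82, and 5.79 and 6.83 in the same order. STARD4, which moves cholesterol between membranes, read 4.86 and 5.97, 4.55 and 5.56, and 4.40 and 5.23. In all 3 genes every high-glucose array lay below every normal-glucose array, as in 1125 of the 14428 genes. The differences were -1.13 ± 0.080 for SCD, -1.18 ± 0.096 for INSIG1 and -0.98 ± 0.084 for STARD4, with adjusted p of 0.0589, 0.0727 and 0.0727 in limma. Each passed at 0.05 under several alternatives, for example with quantile normalization, and none with an array left out. All 4 SCD probe sets above the dim level were negative in every line, from -1.13 to -0.76, as were all 3 of INSIG1, from -1.23 to -1.05.

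SREBF2 itself read 5.32 and 5.89 in Mock, 5.53 and 5.98 in TET2WT, and 5.53 and 6.12 in TET2M at high and normal glucose (-0.54 ± 0.074, adjusted p = 0.0893, limma). Its other probe sets gave smaller differences, -0.21 and -0.08. SREBF1, which encodes SREBP-1, had -0.61, -0.99 and -0.37 in the 3 lines, while SCAP, which escorts SREBP proteins, was at -0.16 and INSIG2 at 0.07. Of 16 tested cholesterol synthesis enzymes 14 had a negative mean, 7 in all 3 lines, and the role's median was -0.19. DHCR7 was lowest at -0.59 ± 0.085 (adjusted p = 0.0893, limma), followed by IDI1 (-0.36), HMGCS1 (-0.32) and SQLE (-0.31), which act earlier in the pathway. Of 15 fatty acid synthesis genes 8 were negative in all 3 lines, with LPIN1 at -0.60 ± 0.081 (adjusted p = 0.0893, limma), ACACA at -0.45, ACSS2 at -0.44 and FASN at -0.41. FASN, the fatty acid synthase, had nearly the same difference in Mock (-0.43), TET2WT (-0.41) and TET2M (-0.40). GPAM, an acyltransferase of glycerolipid synthesis, lay on the other side at 0.41, from 0.58 in Mock, 0.04 in TET2WT and 0.62 in TET2M. Of 7 tested uptake and transport genes 5 had a negative mean, 2 in all 3 lines, with a median of -0.04, and the cholesterol acyltransferase SOAT1 was at 0.32. With the mean of a gene's probe sets SREBF1 was at -0.41, SREBF2 at -0.28, FASN at -0.27, SQLE at -0.19 and SOAT1 at 0.08.

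The list of the integrated stress response and ATF4, regulators included, had the highest median of the 49 lists. Of 59 genes of the integrated stress response list 51 were tested, 34 were positive and 2 negative in all 3 lines, against 16.7% and 20.7% of all genes. None passed at 0.05, and 10 had an adjusted p under 0.1, all higher: CEBPG, STC2, HMOX1, SESN2, ASNS, PSAT1, PSPH, MTHFD2, SLC3A2 and SLC7A5. The median was 0.29, and by line 0.30 in Mock, 0.23 in TET2WT and 0.41 in TET2M. The promoters of ASNS and CEBPG are printed because both hold the letters TGATGNAA, in capitals, a core of the amino acid response element that ATF4 binds with C/EBP partners. They are the 250 bases before a RefSeq start in GRCh38.p14, at chr7:97872409-97872658 on the minus strand and chr19:33373863-33374112 on the plus strand.
ASNS: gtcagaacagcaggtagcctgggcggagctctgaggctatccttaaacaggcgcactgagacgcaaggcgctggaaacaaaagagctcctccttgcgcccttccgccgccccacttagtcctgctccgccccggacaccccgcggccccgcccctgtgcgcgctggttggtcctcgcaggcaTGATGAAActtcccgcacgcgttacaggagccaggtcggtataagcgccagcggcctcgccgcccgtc
CEBPG: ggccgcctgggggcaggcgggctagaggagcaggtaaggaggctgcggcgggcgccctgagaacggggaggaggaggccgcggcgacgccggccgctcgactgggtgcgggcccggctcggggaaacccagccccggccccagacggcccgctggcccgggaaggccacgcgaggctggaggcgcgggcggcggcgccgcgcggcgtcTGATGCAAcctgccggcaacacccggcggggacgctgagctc
Either strand of these letters was found before a start of 304 of 11514 tested genes (2.64%), of 9 of 42 list genes with a promoter (21.4%) and of 3 of 14 cytosolic aminoacyl-tRNA synthetase genes (21.4%). In ASNS they lie 68 to 61 and in CEBPG 42 to 35 bases before the start. Of the 10 members with an adjusted p under 0.1 in limma, ASNS and CEBPG were the only ones in which these letters were found. In the amino acid synthesis role they were found in 1 of 12 genes with a promoter (8.33%).

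Among the regulators, CEBPG, a C/EBP partner of ATF4, read 6.74 at high against 6.00 at normal glucose in Mock, 6.71 and 6.25 in TET2WT, and 6.71 and 5.84 in TET2M (0.69 ± 0.099, adjusted p = 0.0893, limma). Its high-glucose arrays lay within 0.03 of each other. ATF4 itself read 11.28 and 11.02, 11.00 and 10.79, and 11.29 and 10.96, a difference of 0.27 ± 0.072 that did not pass (adjusted p = 0.210, limma). JDP2 (0.86) and ATF3 (0.69), both factors of the same family, had their smallest differences in TET2WT, at 0.52 and 0.21. The sensor kinase genes EIF2AK1, EIF2AK2 and EIF2AK4 lay between -0.11 and 0.12 and EIF2AK3, which encodes PERK, at 0.26. DDIT3, which encodes CHOP, was at 0.04.

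Enzymes of serine and one-carbon metabolism led the amino acid synthesis role. PSAT1, the aminotransferase of serine synthesis, read 11.06 and 10.30 in Mock, 10.79 and 10.14 in TET2WT, and 10.82 and 10.17 in TET2M (0.69 ± 0.073, adjusted p = 0.0783, limma). PSPH, the phosphatase that completes serine, read 7.33 and 5.97, 6.69 and 6.02, and 7.29 and 6.21 (1.04 ± 0.14, adjusted p = 0.0858, limma). ASNS, asparagine synthetase, read 10.26 and 9.52, 10.01 and 9.53, and 10.20 and 9.37 (0.68 ± 0.092, adjusted p = 0.0893, limma). For these 3 genes the high-glucose arrays lay above all normal-glucose arrays. PHGDH, the first enzyme of serine synthesis, had only 0.24, with 0.03 in TET2WT, whereas MTHFD2, a mitochondrial folate enzyme, had 0.51 with 0.55, 0.50 and 0.48 in the 3 lines. ALDH1L2, another mitochondrial folate enzyme, had 1.05 ± 0.18 (adjusted p = 0.138, limma). Of the 11 tested transporters 9 were positive in all 3 lines. SLC7A5 and SLC3A2, the light and heavy chains of the large neutral amino acid transporter, had 0.57 ± 0.085 and 0.53 ± 0.075 (adjusted p = 0.0994 and 0.0893, limma), and the cystine transporter SLC7A11 had 0.28. Of the stress targets, STC2, a secreted glycoprotein, had 0.72 ± 0.082, HMOX1, which degrades haem, 0.63 ± 0.076 and SESN2, a leucine sensor, 0.59 ± 0.078. TRIB3 (0.53) and CHAC1 (0.50) were positive in all 3 lines without reaching 0.1, and PPP1R15A, a phosphatase subunit, was negative in all 3 at -0.19.

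Of 17 tested cytosolic aminoacyl-tRNA synthetase genes, which charge tRNAs with amino acids, 10 were positive and 1 negative in all 3 lines, GARS1 (0.41), YARS1 (0.34) and NARS1 (0.25) leading, with a median of 0.13. The 15 mitochondrial counterparts had a median of -0.04, with 1 positive and 2 negative in all 3 lines. In the unfolded protein response of the endoplasmic reticulum, 11 of 25 tested genes were negative and 4 positive in all 3 lines. The disulphide isomerases PDIA4 (-0.30) and PDIA3 (-0.25) were on the lower side and HERPUD1 (0.36), which ATF4 can also induce, on the higher. Ribosomal protein genes had a median of -0.01. With the mean of a gene's probe sets ALDH1L2 was at 0.61, STC2 at 0.46, ATF3 at 0.30 and PDIA3 at -0.13.

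**Figure D3:**
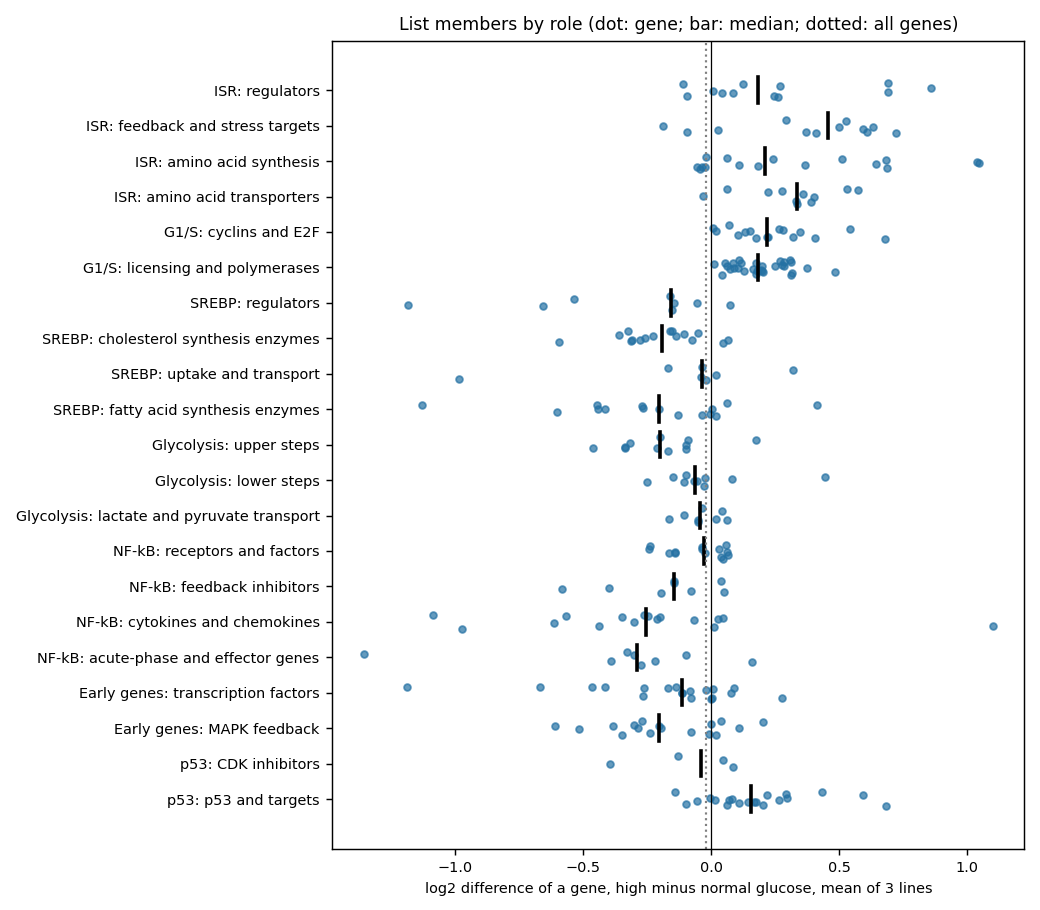
Log2 difference of each tested gene, as the mean of the 3 lines (x axis), for the roles of 7 gene lists (y axis). Each dot is a gene, each bar a median, and the dotted line the median of all genes (-0.02); the integrated stress response (ISR) and G1/S roles lie to the right of it and most SREBP and NF-kB roles to the left.

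Genes of the G1/S transition and DNA replication were higher at high glucose by small amounts throughout the list. All 47 tested genes had a positive mean, 33 were positive in all 3 lines against 16.7% of all genes and none was negative in all 3, and the median was 0.19. None passed at 0.05. CCNE2, cyclin E2, read 7.91 at high against 7.36 at normal glucose in Mock, 7.89 and 7.08 in TET2WT, and 7.69 and 7.02 in TET2M (0.68 ± 0.082, adjusted p = 0.0783, limma). E2F8, a repressor of the E2F family, read 6.78 and 6.32, 6.88 and 6.26, and 6.58 and 6.03 (0.54 ± 0.075, adjusted p = 0.0893, limma). These were the 2 members under 0.1, and in both the concentrations did not overlap. E2F7, the paralogue of E2F8, had 0.38, 0.42 and 0.41 in the 3 lines, a mean that was 0.19 over all its probe sets. Of the origin licensing genes, CDC6 was at 0.48, the helicase subunit MCM5 at 0.37 and ORC1 at 0.32, whereas MCM4 was at 0.04 and MCM7 at 0.10. Before a start, the E2F site TTTCCCGC occurred on either strand in 8 of 38 list genes with a promoter (21.1%) and in 2.61% of all tested genes, and TTTGGCGC in 7 of 38 (18.4%) and 1.04%. Neither motif was found for CCNE2, E2F8, E2F7, CDC6, MCM5 or ORC1, though not every list gene had a promoter sequence. MCM7, at 0.10, carries TTTCCCGC. HELLS, a chromatin remodeller outside the list that carries both motifs, had 0.56 ± 0.080 (adjusted p = 0.0893, limma), and its 5 probe sets were positive in every line. It was picked out after its values had been seen. The median of the 30 tested G2/M genes was smaller, 0.08, with 14 positive and 1 negative in all 3 lines, from TTK (0.32), a spindle checkpoint kinase, and KIF23 (0.30), a mitotic kinesin, down to PTTG1 (-0.11). In TET2WT the G2/M median was 0.17 and in Mock 0.05. The p53 target PMAIP1, which encodes the cell death protein NOXA, read 8.07 and 7.33, 7.63 and 7.12, and 7.83 and 7.03 (0.68 ± 0.086, adjusted p = 0.0842, limma). Of 20 tested p53 genes and targets 10 were positive in all 3 lines, and CDKN1A, which encodes the inhibitor p21, was at 0.05. CDKN1C, which encodes the inhibitor p57, was negative in all 3 lines at -0.40.

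Immediate early genes and feedback genes of MAPK signalling were lower at high glucose in many cases. Of 36 tested, 18 were negative and 4 positive in all 3 lines, with a median of -0.13, none passed at 0.05 and EGR1 and SPRY4 were under 0.1. EGR1, a zinc finger factor induced by growth factors, read 7.39 at high against 8.55 at normal glucose in Mock, 7.30 and 8.10 in TET2WT, and 7.52 and 9.12 in TET2M. Its high-glucose arrays lay within 0.22 of each other and its normal-glucose arrays above them and further apart. The difference was -1.19 ± 0.15 (adjusted p = 0.0842, limma), and its 3 probe sets gave -1.31 to -1.16. SPRY4, a Sprouty inhibitor of receptor tyrosine kinase signalling, read 7.36 and 8.01, 7.43 and 8.04, and 7.76 and 8.33 (-0.61 ± 0.071, adjusted p = 0.0783, limma). The nuclear receptor NR4A2 was at -0.67 and SPRY2 at -0.35, whereas JUN was at -0.02. FOS was at -0.47 with 0.14 in Mock, -0.58 in TET2WT and -0.96 in TET2M.

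**Figure D4:**
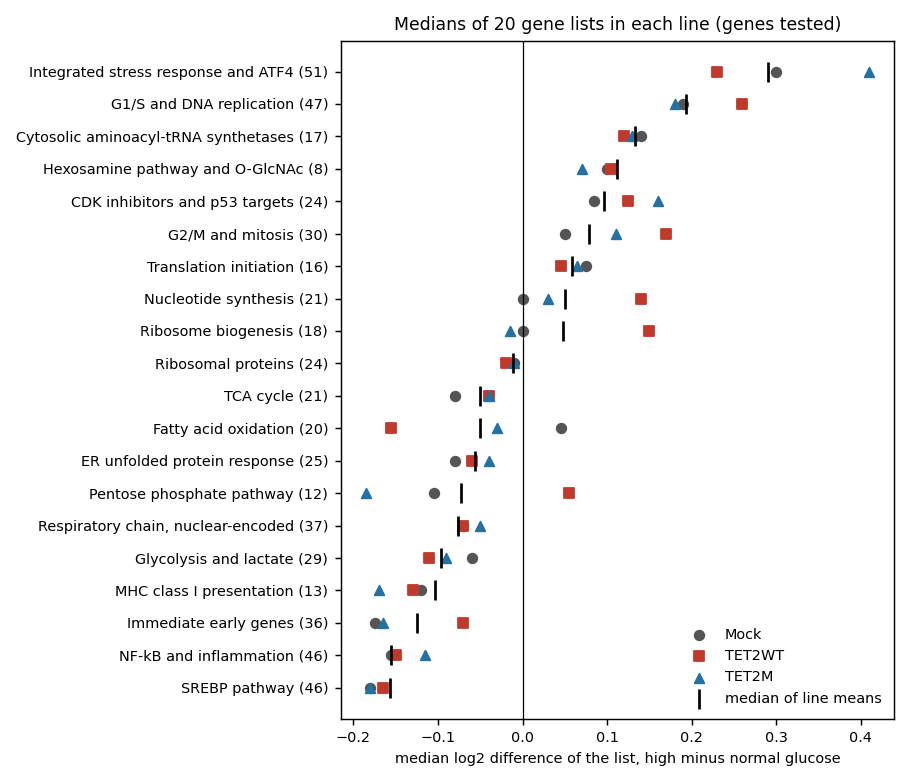
Median log2 difference between high and normal glucose (x axis) of 20 gene lists (y axis, number of tested genes in brackets). Symbols give the 3 lines and the bar the median of the line means; the integrated stress response list lies highest (0.29) and the SREBP list lowest (-0.16).

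The 31 genes apart by 1.5-fold or more in every line include 6 that had an adjusted p of 0.1 or more, because their lines differed in size. FLG, the epidermal protein filaggrin, read 7.20 and 6.30 in Mock, 8.08 and 5.70 in TET2WT, and 7.21 and 6.17 in TET2M (1.44 ± 0.28, adjusted p = 0.153, limma). DKK1, a secreted Wnt antagonist, read 8.85 and 8.24, 8.94 and 6.89, and 8.50 and 7.50 (1.22 ± 0.26, adjusted p = 0.166, limma). ITGA9, the integrin alpha 9 subunit, read 5.39 and 5.99, 3.93 and 6.11, and 4.51 and 5.59 (-1.29 ± 0.28, adjusted p = 0.168, limma). In each of these genes TET2WT had the largest of the 3 differences. GDA, a guanine deaminase, had 0.60, 1.58 and 1.04 and TMEM135, a peroxisome-linked membrane protein, -0.60, -1.13 and -0.62 in Mock, TET2WT and TET2M. SLC35G1, a transporter-like membrane protein, stood at 0.95 ± 0.17. With the mean of a gene's probe sets ITGA9 was at -0.72 and SLC35G1 at 0.46.

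The other genes of that set had an adjusted p under 0.1 in limma. EFEMP1, an extracellular matrix glycoprotein, read 5.03 and 3.58, 6.04 and 5.05, and 5.42 and 4.40, highest in TET2WT at both concentrations (1.15 ± 0.11, adjusted p = 0.0783, limma). CYP1A1, a classic target of the aryl hydrocarbon receptor, read 6.22 and 5.49, 6.77 and 6.08, and 6.23 and 5.33 (0.77 ± 0.079, adjusted p = 0.0783, limma), while its relative CYP1B1 was at 0.12 and the receptor AHR at -0.02. AJUBA, a LIM protein of the Hippo pathway, had 0.62, 0.82 and 0.95 in Mock, TET2WT and TET2M, and it belongs to a YAP and TEAD target list of which 7 of 14 tested genes were positive and 2 negative in all 3 lines. There CRIM1 stood at 0.40 and LATS2, a Hippo kinase, at 0.35 (0.20 with the mean of its probe sets), while CCN1 and CCN2 were negative in Mock and TET2M and positive in TET2WT. INHBA, the beta A subunit of activin, read 8.96 and 9.62, 8.08 and 8.75, and 8.11 and 8.89 (-0.70 ± 0.073, adjusted p = 0.0783, limma). Mock was higher than the other lines at both concentrations, so the concentrations overlapped across lines. TPM1, a tropomyosin, had 0.68, 0.75 and 0.65, and 5 of 5 probe sets had a positive mean. SORCS1, a sorting receptor, had -0.62, -0.75 and -0.88, and the long non-coding RNA OLMALINC -0.81, -0.85 and -0.98. In TET2WT SORCS1 read 2.04 at high glucose, below the dim level of 2.64, and 2.79 at normal glucose, just above it. On the higher side stood also the vitamin B12 binder TCN1 (0.78), the CDP-diacylglycerol synthase CDS1 (0.92), the elongation factor ELL2 (0.95), the tubulin TUBE1 (0.76), the serpin SERPINB7 (0.68), EVA1A (0.99) and CFAP95 (0.92). In TET2WT at normal glucose CFAP95 read 2.33, below the dim level, and SERPINB7 2.69, just above it. Averaged over its probe sets, ELL2 was at 0.53.

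**Figure D5:**
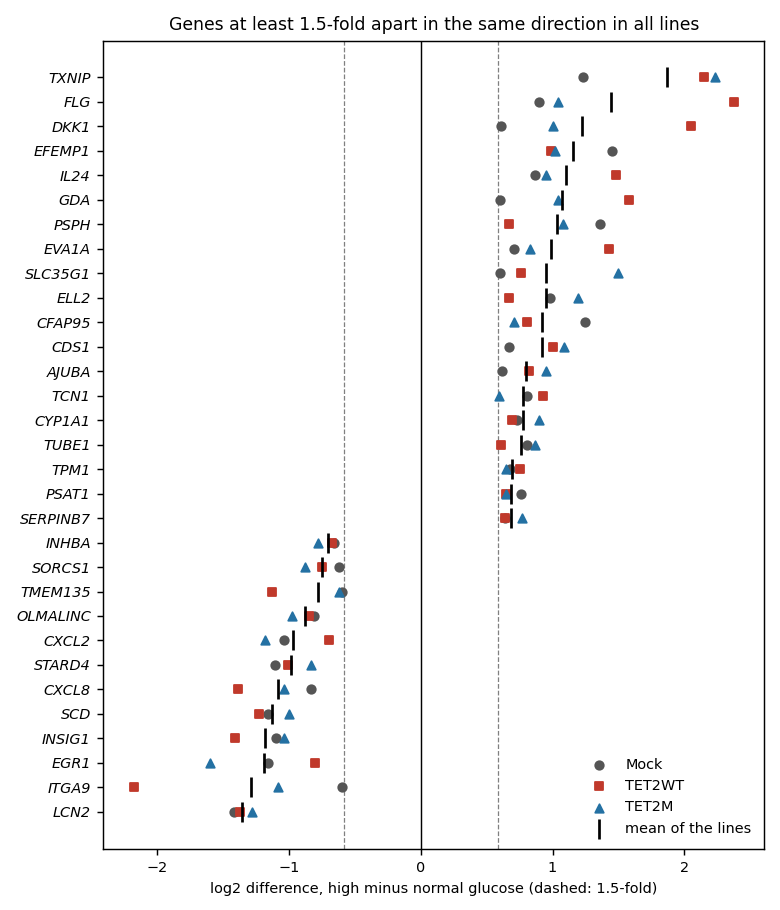
Log2 difference between high and normal glucose (x axis) in each line, for the 31 genes (y axis) with a 1.5-fold or larger change of 1 sign in each line. Symbols are the single line differences, bars their means and dashed lines the 1.5-fold limits; the LCN2 symbols lie close together, while those of FLG, DKK1 and ITGA9 are spread by TET2WT.

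Of the 80 genes with an adjusted p under 0.1 and the further genes of the 31, 86 in all, 48 had more than 1 probe set above the dim level. In 43 of these 48 every probe set had a mean of the same sign, and in 36 every probe set had that sign in every line. The 5 with an opposite probe set included NRF1, at 0.64 by its main probe set, -0.32 by its lowest and 0.15 by the mean of its probe sets. Genes for secreted proteins outside the lists were found on both sides of the 80 and were chosen for naming after their values were seen. KITLG, the ligand of the KIT receptor, read 3.95 and 3.42, 3.73 and 3.24, and 4.23 and 3.71 (0.51 ± 0.070, adjusted p = 0.0893, limma), and IL7, a lymphocyte growth factor, 4.15 and 3.66, 4.05 and 3.50, and 3.84 and 3.40 (0.49 ± 0.072, adjusted p = 0.0922, limma). ENPP2, the enzyme autotaxin that makes lysophosphatidic acid, read 5.69 and 6.22, 4.63 and 5.43, and 4.66 and 5.47 (-0.71 ± 0.088, adjusted p = 0.0783, limma), and HTRA1, a secreted serine protease, 6.34 and 6.88, 6.98 and 7.74, and 5.95 and 6.70 (-0.68 ± 0.081, adjusted p = 0.0783, limma). The line differences of each of these 4 genes lay within 0.28 of each other.

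Whether the glucose response depended on the line was tested by setting each line's difference against the mean of the other lines. In limma no gene passed for Mock (0%), for TET2WT (0%) or for TET2M (0%). The unadjusted p in limma was under 0.05 for 489, 1325 and 302 of the 14428 genes. That model had 1 residual degree of freedom. In TET2WT, FLG exceeded the other lines by 1.41 ± 0.12 and ITGA9 lay below them by -1.34 ± 0.27, both with an adjusted p of 0.531. The differences past 2-fold numbered 11 higher and 11 lower in Mock, 10 and 17 in TET2WT, and 17 and 7 in TET2M. COL12A1, a fibril-associated collagen, was the highest in Mock at 1.59, against 0.93 and 0.55 in TET2WT and TET2M. ANKRD1, a YAP target, was at -1.22 in Mock and 0.53 in TET2WT, and COXFA4L3 at -1.27 and 0.13. MGP, a matrix protein that inhibits calcification, was at -1.84 in TET2WT, -0.89 in TET2M and -0.02 in Mock, and LOXL4, a lysyl oxidase, at -1.58, -0.63 and -0.58. LHX8, a LIM homeobox factor, was at 1.75 in TET2M and 0.21 in TET2WT. A change of 1.5-fold or more in opposite directions in different lines was found for 9 genes, among them ZNF668 (0.72 in Mock, -0.79 in TET2WT and 0.72 in TET2M), PPARA, a fatty acid receptor (0.76, -0.18 and -0.62), SUOX, sulphite oxidase (0.02, -0.65 and 0.88), KRT3, a keratin (-1.09, -0.24 and 0.75), and RTEL1, a DNA helicase (-0.61, 0.97 and -0.02). TET2, the overexpressed gene, kept its order of lines at both concentrations, with 3.81 and 4.13 in Mock, 9.54 and 9.68 in TET2WT, and 7.57 and 7.37 in TET2M at high and normal glucose (-0.09 ± 0.11). The TET and DNA methylation list, TET2 included, had a median of -0.02 over 19 tested genes. Its differences ran from -0.25 to 0.34, with 4 positive and 4 negative in all 3 lines.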

How the data were processed

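Per the labels, total RNA of the A2058 lines was hybridised to 1 Affymetrix array for each of 6 combinations of line and glucose. The submitters' processing notes name Affymetrix Expression Console, with which the authors made the deposited log2 values, 1 per probe set. How probes were summarised and background-corrected, and the version, was not given in the sources used here. Sorted columns differed by at most 0.12, so the arrays share nearly 1 distribution, and no further normalization was applied.

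Of 54675 probe sets on the array, 62 were controls, and the platform annotation gave 1 gene symbol for 41097, several for 1801 and none for 11777. Symbols were updated by gene ID from RefSeq (GRCh38.p14) for 41043, and the other 54 were left as annotated. Probe sets with a mean below the 40th percentile (2.64) were left out, and the probe set with the highest mean stood for a gene, which left 14428 genes. The package limma 3.58.1 in R 4.3.3 fitted line and glucose over 6 arrays (residual degrees of freedom: 2; prior: 3.97). Tests were two-sided with Benjamini-Hochberg adjustment over all genes. The tests were also run on simulated data with independent errors drawn from limma's own fitted variance. Such data meet the model's assumptions, so the run cannot show that these arrays meet them.

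Members, lists, tests and naming rules were chosen with earlier results of these data known. Named are the 15 higher and 15 lower genes with the largest smallest difference over the lines, up to 8 members of a list and its regulators, 3 extremes per line in each direction, 5 genes of opposed direction, and TET2, TXNIP, ARRDC4, LCN2, GAPDH and ACTB. The 49 lists are described by counts and medians. Promoters of 11514 tested genes (16635 start sites, 250 bases each) came from RefSeq. Alternatives covered the low-value filter, the choice of probe set, normalization, the variance model, the line term and each array left out. Figures used Python 3.11.15 and matplotlib 3.10.9.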

Additional observations from a re-analysis of the deposited data

Results flagged for a closer look

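Probe sets that the annotation gives to several genes or to none were outside the gene comparison, and 9 of 13522 such probe sets showed a change of 1.5-fold or more with 1 sign in each line. At high glucose 4 of the 9 were higher and 5 lower. They are drawn to attention because this signal lies in values the comparison did not use. They are not named here.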

How the results depend on the processing

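The intensity trend moved the counts most. At an adjusted p under 0.05 in limma, 1 gene was lower and 0 higher as reported. The lower count was 2 with no filter on dim probe sets, 5 with a 60th percentile filter, 5 with quantile and 3 with cyclic loess normalization, and the mean of a gene's probe sets gave 4 lower and 1 higher. The added genes were among SCD, INSIG1, STARD4, OLMALINC and TXNIP. With an intensity trend 315 were higher and 258 lower, with robust variance 0 and 1, and with no line term, line as a random block (consensus correlation 0.359) or any array or line left out, 0 were lower and 0 higher. At 0.1, the 54 higher and 26 lower became 117 and 86 with the 60th percentile filter, 34 and 15 with every probe set on its own, 63 and 47 with quantile normalization, 62 and 39 with cyclic loess, 592 and 472 with the trend, 51 and 24 with robust variance, 24 and 12 with the random block, and 0 and 0 with no line term or with any array or line left out. The 1.5-fold rule gave 30 higher genes with every probe set on its own, and from 28 to 53 higher and from 17 to 29 lower with a line left out, where fewer lines must satisfy it. No gene passed for a line-specific response under any alternative that could be fitted.

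With an array or line left out the sign was not kept for TET2 (-0.23 to 0.03), ANKRD1 (-0.755 to 0.12), CCN2 (-0.375 to 0.125), JUN (-0.095 to 0.095), KRT3 (-0.665 to 0.255), ZNF668 (-0.035 to 0.72), ACTB (-0.03 to 0.07), AHR (-0.16 to 0.125), RTEL1 (-0.315 to 0.475), CDKN1A (-0.025 to 0.085), DDIT3 (-0.055 to 0.165), SUOX (-0.315 to 0.45), PPARA (-0.4 to 0.29), EIF2AK2 (-0.06 to 0.055) or the median of mitochondrial synthetases (-0.065 to 0.01). The mean of probe sets turned EIF2AK1 (0.008333) and PPARA (0.1111). Quantile and cyclic loess normalization turned EIF2AK2 (-0.001389 and -0.009958) and the ribosomal protein median (0.00625 and 0.00193). The mean of a gene's probe sets moved 39 of 174 named genes by over 1.5 times, and leaving out an array or line moved 38, DKK1 to 0.805 and ITGA9 to -0.84 without TET2WT among them. The causes were not tested. Of 3124 values of named genes under alternatives, 2935 kept direction and side of the threshold. LCN2 alone had passed as reported, so for every other gene keeping the side meant not passing. Leaving out either array of a line or the line itself gives the same fit, which is counted each time. The share kept is therefore not a measure of robustness. The reported fit pairs the arrays by line, and the labels give no replicate numbers for another block. Leaving out 1 array removes its line's pair and leaves 1 residual degree of freedom, and 6 arrays limit the precision throughout.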

Other observations

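Of the further gene lists some were near the shares of all genes (16.7% positive and 20.7% negative in all 3 lines) and some were not, and none of the genes named here passed at 0.05 in limma. Of 22 tested lysosome and autophagy genes 9 were negative and none was positive in all 3 lines. HEXA, a lysosomal hexosaminidase subunit, had -0.25, -0.21 and -0.48 in Mock, TET2WT and TET2M, and the protease CTSB -0.18, -0.20 and -0.14. In the mTORC1 list, near those shares with 4 of 19 negative and 4 positive in all 3 lines, DEPTOR, an inhibitor of mTOR, stood at -0.53 (-0.34, -0.53 and -0.71). The leucine sensor gene SESN1 had 0.17 there. Of 23 tested NRF2 and glutathione genes 8 were negative in all 3 lines, AKR1C2, an aldo-keto reductase, at -0.51 and NQO1, a quinone reductase, at -0.17, while GCLM, a subunit of glutathione synthesis, was at 0.39. Of 16 translation initiation factors 9 were positive in all 3 lines, EIF1AX at 0.25.

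Genes of the cell surface and matrix were mixed. Of 16 integrin subunits 6 were negative and none positive in all 3 lines, ITGB3 at -0.39 and ITGB4 at -0.38 beside ITGA9. In the extracellular matrix list 10 of 30 were negative and 7 positive in all 3 lines, with COL4A1, a basement membrane collagen, at -0.26 and the adhesive glycoprotein THBS1 at 0.49. Among 15 matrix metalloproteinases and their inhibitors 5 were negative in all 3 lines, the protease ADAMTS1 at -0.46 and MMP14 at -0.26. SFRP1, another Wnt antagonist, stood at -0.33 where DKK1 had 1.22. Of the hypoxia list, VEGFA, the vascular growth factor, was at 0.37 and DDIT4, a stress-induced inhibitor of mTORC1, at 0.41, while P4HA1, a collagen prolyl hydroxylase, was at -0.25 and the list was near those shares with 5 of 24 positive and 5 negative in all 3 lines. In the insulin list the adaptor IRS1 was at 0.31 and the receptor IGF1R at 0.23, each positive in all 3 lines. The heat shock factor HSF1 was at -0.34. With the mean of a gene's probe sets HEXA was at -0.16, ITGB4 at -0.15 and SFRP1 at -0.22.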
